A study of Mus musculus with 8 samples.

Results

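The 10 genes described here encode the core of the NLRP3 inflammasome, the caspases and pore former that act with it, the interleukin-1 (IL-1) family cytokines whose maturation or release it drives, and their soluble antagonists. They were taken as the rows of the count table that carry the symbols Nlrp3, Pycard, Casp1, Casp4, Gsdmd, Il1a, Il1b, Il18, Il1rn and Il18bp, which are 10 of 55401 genes, and all 10 were among the 15202 genes with enough counts to be tested.

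An inflammasome forms when a sensor such as NLRP3 detects damage, for instance a lysosome ruptured by an engulfed crystal, and recruits the adaptor ASC, the product of Pycard, which gathers and activates caspase-1. Caspase-1 cleaves the precursors of IL-1β and IL-18 and cleaves gasdermin D, the product of Gsdmd, whose fragment opens pores in the plasma membrane. Caspase-11, the product of mouse Casp4, cleaves gasdermin D when bacterial lipopolysaccharide reaches the cytosol. IL-1α binds the same receptor as IL-1β, the receptor antagonist encoded by Il1rn occupies that receptor without signalling, and the IL-18 binding protein encoded by Il18bp captures IL-18. Activation takes place by assembly and cleavage of proteins, so the levels below are those of the transcripts alone.

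RNA was sequenced from hepatic macrophages in 8 libraries, 2 for each of 4 groups, all from mice on the C57BL/6J background. Macrophages labelled normal came from livers of wild-type (WT) mice on standard diet, and those labelled steatotic from livers of MC4R-KO mice, which lack the melanocortin 4 receptor and become obese, kept on Western diet for 6 to 10 weeks. Genotype and diet thus changed together and cannot be told apart. All cells were pulled from the liver with antibodies to F4/80 on magnetic columns, plated on collagen in medium with serum, and given vehicle (Veh) or cholesterol crystals (CC, 500 μg/ml) for 24 h. Whether libraries of a group came from separate animals or cultures is not stated, so p-values measure only the spread between these libraries, which may be technical. Total counts ranged from 58668655 to 74529462 per library, so that 3 counts corresponded to 0.0403 to 0.0511 CPM (counts scaled to the library total), far below every member.

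One gene ran against the labels. Mc4r, the gene disrupted in the MC4R-KO mice, had 0 counts in all 4 libraries labelled normal, and 28, 22, 53 and 72 counts in the libraries labelled steatotic (Veh 1, Veh 2, CC 1 and CC 2). Whether reads can still arise from a disrupted allele was not tested. All directions between the livers therefore rest on the labels, and the groups are called the libraries labelled normal and labelled steatotic. All 8 macrophage markers, among them Adgre1 (the gene of F4/80), Cd68 and Csf1r, were detected in all groups, with a summed level of 16524 to 16997 CPM in normal Veh, 13217 to 13349 CPM in normal CC, 13276 to 13568 CPM in steatotic Veh and 10729 to 11681 CPM in steatotic CC. In bulk RNA, fewer cells of a type and less RNA per cell cannot be told apart.

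Il1a and Il1b, the members of the 10 with the largest called differences between the livers in the response to CC, lie 54597 bp apart on the minus strand of chromosome 2, Il1a at chr2:129299610-129309972 and Il1b at chr2:129364570-129371139 in GRCm38. Il1rn, the member with the highest level per kb with CC, lies on the plus strand of the same chromosome at chr2:24336853-24351494. The 250 bases before their RefSeq start sites (GRCm38.p6, given 5′ to 3′ on the strand of the gene, chr2:129309973-129310222 for Il1a, chr2:129371140-129371389 for Il1b and chr2:24336610-24336859 for the first of 3 Il1rn starts) are shown because these members took different courses with CC. Capitals mark matches to the TATA box TATAAA and to the AP-1 motif TGANTCA.
Il1a: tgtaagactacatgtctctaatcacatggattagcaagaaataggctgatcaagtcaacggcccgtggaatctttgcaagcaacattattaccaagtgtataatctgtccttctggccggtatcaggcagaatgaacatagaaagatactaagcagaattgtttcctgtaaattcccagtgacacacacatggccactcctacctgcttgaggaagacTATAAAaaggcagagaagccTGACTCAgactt
Il1b: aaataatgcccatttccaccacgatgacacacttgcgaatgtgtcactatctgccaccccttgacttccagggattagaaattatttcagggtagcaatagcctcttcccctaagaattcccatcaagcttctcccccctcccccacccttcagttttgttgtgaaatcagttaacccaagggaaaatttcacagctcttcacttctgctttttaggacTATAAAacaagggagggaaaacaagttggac
Il1rn: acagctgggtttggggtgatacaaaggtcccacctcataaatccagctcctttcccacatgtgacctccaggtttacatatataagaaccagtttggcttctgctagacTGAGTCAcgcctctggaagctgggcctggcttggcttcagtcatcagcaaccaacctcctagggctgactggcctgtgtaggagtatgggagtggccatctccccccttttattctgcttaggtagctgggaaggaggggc
Il1a held TATAAA 32 to 27 bases and TGACTCA 12 to 6 bases before its start. Il1b held TATAAA 31 to 26 bases before its start and no AP-1 match. The Il1rn window shown held TGAGTCA 141 to 135 bases before its start and no TATAAA. The other Il1rn windows lie downstream, at chr2:24345041-24345290 and chr2:24345121-24345370, and held neither of these motifs. Which Il1rn start gave the reads counted here was not tested, so no window is assigned to the response of Il1rn to CC. Both strands were searched, and TATAAA was found in 12.4% and TGANTCA in 6.75% of 32851 RefSeq windows of the same length, each window counted once.

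RefSeq windows were found for 9 of the 10 members (not Gsdmd). The NF-κB motif, held by 4.65% of all windows, matched the windows of Casp4 and the third start of Il1rn. The C/EBP motif TTGCNNAA (9.56% of all windows) was in those of Pycard and Il18bp, and the E-box CACGTG (6.02%) in that of Casp1. The window of Il18 held TATAAA only on the opposite strand, 175 to 170 bases before the start. No window of Nlrp3 held any of the motifs searched, and the EGR motif GCGNGGGCG (4.70% of all windows) was in no member's window. A match describes letters only.

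Per kilobase of merged exon, the scale on which genes can be compared, the mean of the 4 groups was 131 CPM per kb for Il1rn, followed by Casp1 at 107, Il1a at 58.8, Il18bp at 54.6, Il1b at 48.0, Gsdmd at 35.8, Casp4 at 34.5, Il18 at 24.5, Nlrp3 at 11.4 and Pycard at 8.13 CPM per kb. On this scale the sensor and its adaptor were the lowest of the 10. The place of Pycard rests on a merged exon length of 3800 bp, which takes in nearly the whole gene and would lower its level per kb where shorter transcripts give most of the reads. The same limit holds for Il1rn, with 5535 bp merged over 6 transcripts, against 1497 bp and 1 transcript for Casp1. In CPM, Il1rn stood above Casp1 in all 4 groups. The order depended on the group. With Veh, Casp1 stood above Il1rn, at 112 against 77.1 CPM per kb in normal and 110 against 53.6 CPM per kb in steatotic libraries, where Il18bp at 71.7 CPM per kb also did, and with CC Il1rn stood above all other members at 220 and 172 CPM per kb. Il1b exceeded Il1a with Veh, at 52.3 against 41.2 CPM per kb in normal and 43.1 against 19.3 CPM per kb in steatotic libraries, and Il1a exceeded Il1b with CC, at 85.1 against 36.9 and at 89.7 against 59.8 CPM per kb. Casp1 (chr9:5298517-5307265) and Casp4 (chr9:5308828-5336783) are neighbouring paralogs 1562 bp apart, so reads could be shared between them.

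**Figure D1:**
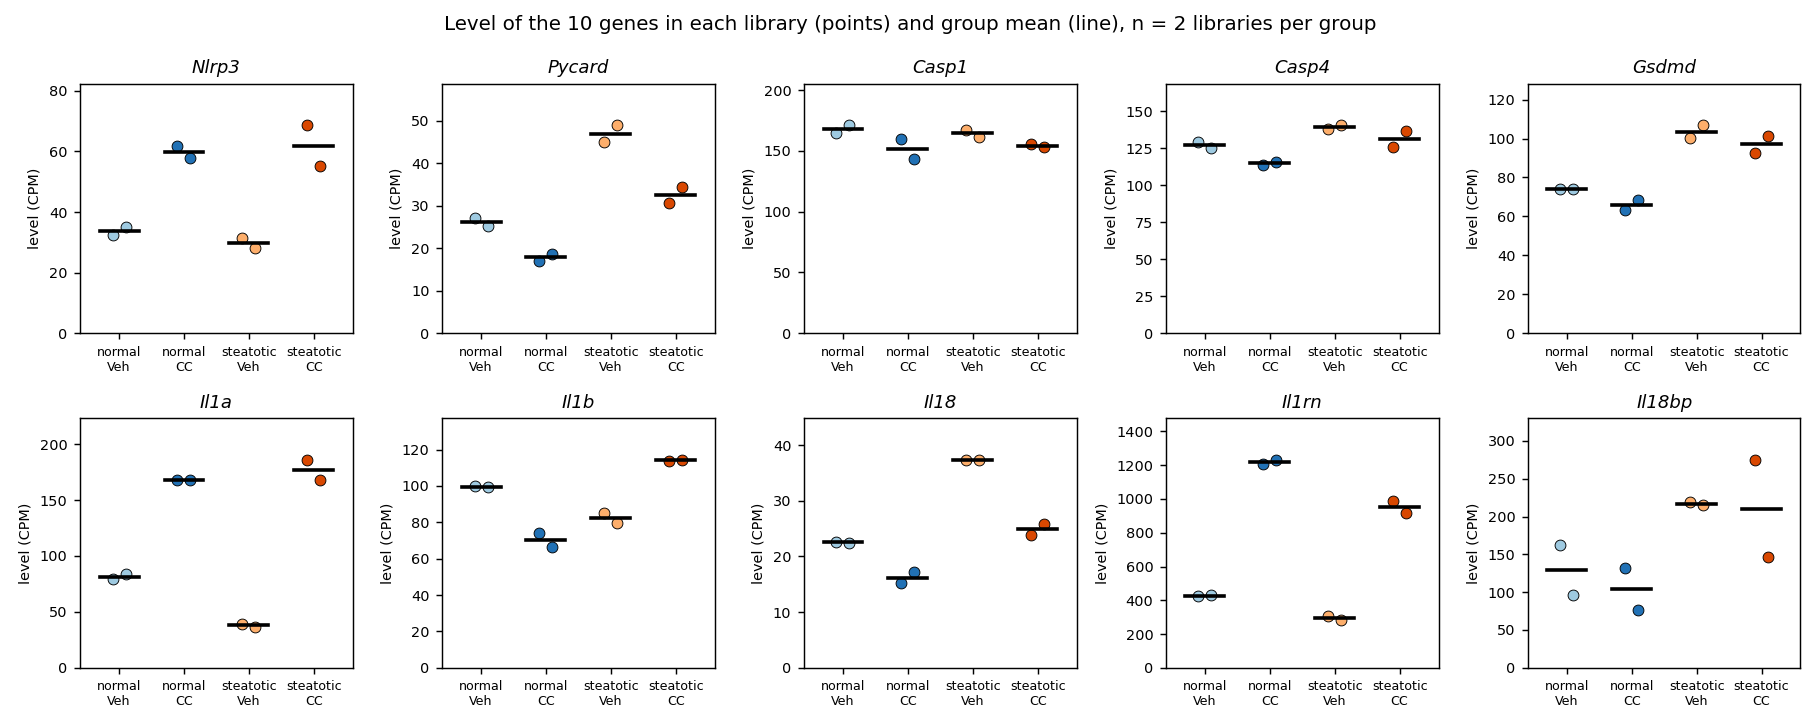
Level of each of the 10 genes (CPM, axis from 0) in the 8 libraries, with points for single libraries and a line for the mean of the 2 libraries of a group. Nlrp3, Il1a and Il1rn are higher with CC under both labels, Pycard and Il18 are lower with CC, Il1b moves in opposite directions under the 2 labels, and the libraries of Il18bp are far apart within 3 of the 4 groups.

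The response to CC was compared with Veh under each label. In the libraries labelled normal, 3 of the 10 genes rose (Nlrp3, Il1a, Il1rn), 3 fell (Pycard, Il1b, Il18) and 4 were not called by edgeR's quasi-likelihood test with Benjamini-Hochberg adjustment, while 6.27% of all tested genes rose and 5.54% fell (11.8% in either direction). In the libraries labelled steatotic, 4 rose (Nlrp3, Il1a, Il1b, Il1rn), 2 fell (Pycard, Il18) and 4 were not called, beside 12.0% and 10.9% of all tested genes (22.9% in either direction). The members' median log2 fold change was -0.12 in normal and -0.05 in steatotic libraries, against -0.00059 and 0 over all tested genes. The genes that rose under both labels were the sensor, the ligand Il1a and the antagonist Il1rn, the genes that fell under both were the adaptor and Il18, and Il1b fell under the label normal and rose under the label steatotic.

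Nlrp3, the sensor, had 32.5 and 35.1 CPM in normal Veh, 61.8 and 57.9 CPM in normal CC, 31.3 and 28.0 CPM in steatotic Veh, and 68.7 and 55.2 CPM in steatotic CC (chr11:59541568-59566956). Under both labels the CC libraries lay above the Veh libraries without overlap. The log2 fold change with CC was 0.86 (SE 0.113, edgeR adjusted p = 0.00281) in normal and 1.08 (SE 0.113, edgeR adjusted p = 0.000426) in steatotic libraries, a rise of 1.82-fold and 2.11-fold. These responses were not called different, at 0.22 on the log2 scale (95% interval -0.15 to 0.59, edgeR adjusted p = 0.624).

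Pycard, the adaptor, went the other way. It had 27.2 and 25.2 CPM in normal Veh, 17.1 and 18.6 CPM in normal CC, 44.9 and 49.0 CPM in steatotic Veh, and 30.7 and 34.4 CPM in steatotic CC (chr7:127989708-127993867). The CC libraries lay below the Veh libraries under each label, and even the lower steatotic CC library lay above both normal Veh libraries. Pycard fell by 0.52 in normal (SE 0.0897, edgeR adjusted p = 0.00969) and by 0.51 in steatotic libraries (SE 0.0888, edgeR adjusted p = 0.00499) on the log2 scale, and the difference was 0.01 (95% interval -0.29 to 0.30). The normal call was lost without normal Veh 1 or normal CC 1 (edgeR adjusted p = 0.0628 and 0.0640, range 0.0117 to 0.0640 over the 8 fits that left out a library), and 485 bp of the Pycard exons (12.8%) overlap Gm45205 on the opposite strand. The library kit keeps strand, but whether the counting used it is not given in the sources used here.

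Casp1, Casp4 and Gsdmd had narrow intervals that included no change with CC. Casp1, the inflammatory caspase of the complex, had 165 and 171 CPM in normal Veh, 160 and 144 CPM in normal CC, 168 and 162 CPM in steatotic Veh, and 156 and 153 CPM in steatotic CC. Its log2 fold change was -0.11 (95% interval -0.24 to 0.02, edgeR adjusted p = 0.277) in normal and -0.08 (-0.21 to 0.06, edgeR adjusted p = 0.409) in steatotic libraries. Casp4 ranged from 114 to 141 CPM over all 8 libraries, with -0.11 (-0.22 to 0.00) and -0.07 (-0.18 to 0.05). Gsdmd ranged from 63.2 to 107 CPM, with -0.14 (-0.28 to 0.01) and -0.08 (-0.22 to 0.07) with CC. None of these 6 differences was called by edgeR or by DESeq2, each 95% interval included 0, and no interval end was further than 0.28 from 0 on the log2 scale.

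Of the 3 cytokine genes among the 10, Il1a had the largest rise with CC under each label. It had 79.0 and 83.7 CPM in normal Veh, 168 and 168 CPM in normal CC, 39.5 and 36.6 CPM in steatotic Veh, and 186 and 168 CPM in steatotic CC. The steatotic Veh libraries were the lowest of all, and with CC the libraries of both labels came to the same range. The rise was 2.12-fold in normal (log2 1.08, SE 0.0652, edgeR adjusted p = 9.1e-05) and 4.71-fold in steatotic libraries (log2 2.23, SE 0.0676, edgeR adjusted p = 2.03e-06). The difference between these responses was 1.15 on the log2 scale (SE 0.0917, 95% interval 0.94 to 1.37, edgeR adjusted p = 0.00169). With CC alone the labels did not differ by call, at 0.10 (-0.05 to 0.25, edgeR adjusted p = 0.293). Of the Il1a exons, 222 bp (11.2%) overlap Gm14023 on the opposite strand.

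Il1b was the only member called in opposite directions with CC under the 2 labels. It had 99.9 and 99.5 CPM in normal Veh, 74.4 and 66.4 CPM in normal CC, 85.0 and 79.3 CPM in steatotic Veh, and 114 and 114 CPM in steatotic CC. Groups did not overlap, and their order from low to high was normal CC, steatotic Veh, normal Veh and steatotic CC. Il1b fell by 0.47 on the log2 scale in normal libraries (SE 0.0628, edgeR adjusted p = 0.00308) and rose by 0.49 in steatotic libraries (SE 0.0627, edgeR adjusted p = 0.00111).

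The difference between the 2 responses of Il1b was 0.95 on the log2 scale (SE 0.0888, 95% interval 0.75 to 1.16, edgeR adjusted p = 0.00273). Il1a and Il1b were the 2 members of 10 whose responses were called different, Il1a with the larger rise under the label steatotic and Il1b with opposite directions of similar size, both differences above 0 as steatotic minus normal, beside 1.95% of all tested genes called in that direction and 1.27% in the other (3.22% in all). The members' median difference was 0.10, against 0.0053 over all tested genes. Both calls held in each of the 8 fits that left out a library, with the difference between 1.08 and 1.22 for Il1a and between 0.87 and 1.04 for Il1b.

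Il18, whose product is also matured by caspase-1, fell with CC under both labels. It had 22.5 and 22.5 CPM in normal Veh, 15.1 and 17.3 CPM in normal CC, 37.3 and 37.3 CPM in steatotic Veh, and 23.9 and 25.8 CPM in steatotic CC. No groups overlapped, with steatotic Veh the highest. The log2 fold change was -0.44 in normal (SE 0.0843, edgeR adjusted p = 0.0150) and -0.57 in steatotic libraries (SE 0.0836, edgeR adjusted p = 0.00218), with a difference of -0.13 (95% interval -0.41 to 0.14). The normal call was lost without normal Veh 1, normal Veh 2 or normal CC 1 (edgeR adjusted p = 0.0734, 0.0639 and 0.0779, range 0.0187 to 0.0779 over the 8 fits that left out a library).

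Il1rn had 423 and 431 CPM in normal Veh, 1207 and 1231 CPM in normal CC, 308 and 285 CPM in steatotic Veh, and 989.5 and 915.3 CPM in steatotic CC. The CC libraries lay far above the Veh libraries, and within each treatment the steatotic libraries lay below the normal ones. The rise was 2.93-fold in normal (log2 1.55, SE 0.0524, edgeR adjusted p = 1.48e-05) and 3.25-fold in steatotic libraries (log2 1.70, SE 0.0527, edgeR adjusted p = 2.06e-06), which differed by 0.15 (95% interval -0.02 to 0.32, edgeR adjusted p = 0.415).

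Il18bp could not be resolved at 2 libraries a group. It had 162 and 96.2 CPM in normal Veh, 132 and 76.8 CPM in normal CC, 219 and 215 CPM in steatotic Veh, and 275 and 146 CPM in steatotic CC. In 3 of the groups the replicates were further apart than the Veh and CC means under either label, and the interval of the CC response ran from -1.51 to 0.97 in normal and from -1.26 to 1.21 in steatotic libraries.

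**Figure D2:**
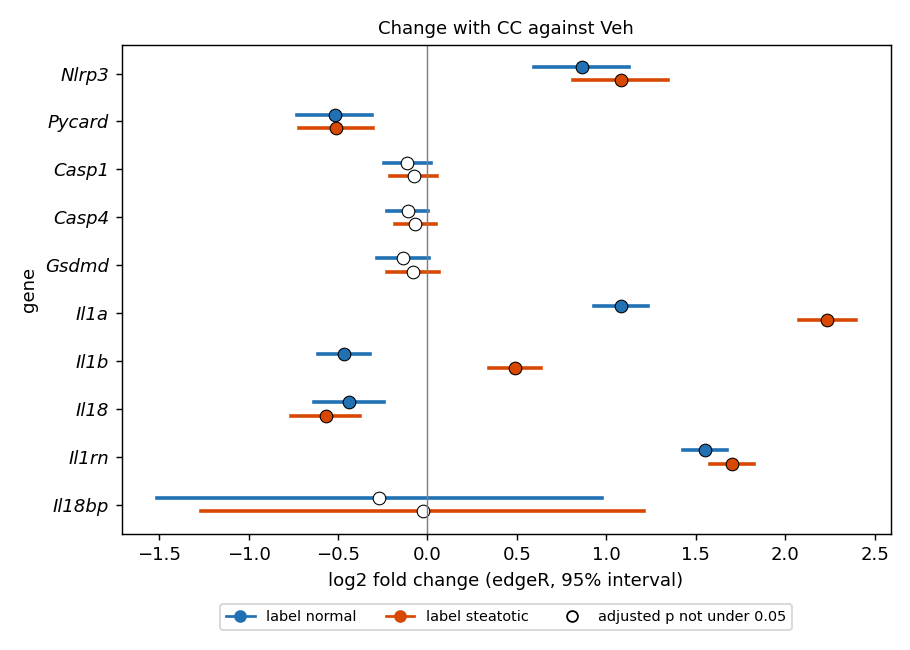
Log2 fold change of each gene with CC against Veh (points) with its 95% interval (lines) in the libraries labelled normal (blue) and steatotic (orange), with open points where the edgeR adjusted p is not under 0.05. Il1b lies on opposite sides of 0 at -0.47 and 0.49, Il1a reaches 1.08 and 2.23, and the intervals of Casp1, Casp4, Gsdmd and Il18bp all include or touch 0.

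Markers of other cells moved in part with CC. Of the 5 recruited monocyte markers, 1 was lower with CC in steatotic libraries, and of the 8 macrophage markers 6 were lower and 1 higher (Cd14) in normal and 5 lower and 2 higher (Cd14 and Cd68) in steatotic libraries. Of the 6 Kupffer cell markers 3 were lower in normal, and 4 were lower and 1 higher in steatotic libraries, with a summed level of 2797 to 2844 CPM in normal Veh, 2201 to 2414 CPM in normal CC, 3948 to 4026 CPM in steatotic Veh and 2606 to 3123 CPM in steatotic CC. Of 6 tested endothelial markers 2 were higher in normal, and 4 were higher and 1 lower in steatotic libraries, summing to 146 to 151, 177 to 182, 247 to 251 and 228 to 240 CPM in the 4 groups. Of the 11 neutrophil markers, a cell type that is also rich in Il1b and Il1rn, 4 were tested, of which 3 rose and 1 fell (Csf3r) under each label, with a summed level of 144 to 145 CPM in normal Veh, 163 CPM in both normal CC libraries, 251 to 260 CPM in steatotic Veh and 392 to 399 CPM in steatotic CC. In the difference of responses, steatotic minus normal, 2 of these 4 were called higher and 0 lower, with a median of 0.80 on the log2 scale. Of all tested genes, 1.95% were called higher in that contrast. The defining marker Ly6g was at 0 in all 8 libraries and S100a9, Retnlg, Cxcr2, Camp, Ngp and Ltf had group means of at most 0.141 CPM. The stellate cell list, of which 1 of 8 genes was tested (Dcn), summed to 2.93 to 2.99, 6.05 to 7.48, 18.1 to 21.5 and 108 to 136 CPM in the 4 groups. Its untested genes were each under 0.5 CPM in every library, so the sum in steatotic CC was nearly all Dcn. The part of any of these cell types in the responses was not tested.

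The ratio of antagonist to ligand within a library does not depend on scaling between libraries. The ratio of Il1rn to Il1b counts was 4.24 and 4.33 in normal Veh, 16.2 and 18.5 in normal CC, 3.62 and 3.60 in steatotic Veh, and 8.70 and 8.01 in steatotic CC. With CC it was thus higher under both labels, and the 2 normal CC libraries stood above all others. The ratio of Il1rn to Il1a was 5.36 and 5.14 in normal Veh, 7.20 and 7.32 in normal CC, 7.78 and 7.80 in steatotic Veh, and 5.33 and 5.44 in steatotic CC, higher with CC under the label normal and lower under the label steatotic. The ratio of Il18bp to Il18 was between 4.28 and 11.5 with overlapping groups. Within a label, a permutation of 2 libraries against 2 cannot pass the threshold, and the ratios are given as values without a test.

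**Figure D3:**
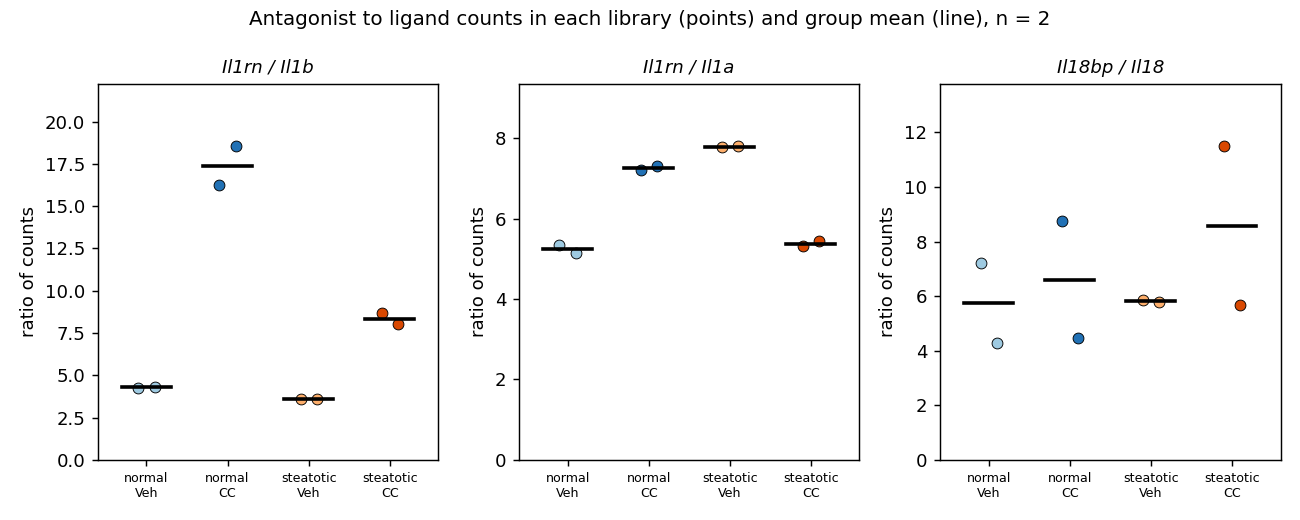
Ratio of antagonist to ligand counts (axis from 0) in each library (points) with the mean of the 2 libraries of a group (line). Il1rn to Il1b has means of 4.28, 17.4, 3.61 and 8.36 in normal Veh, normal CC, steatotic Veh and steatotic CC, Il1rn to Il1a moves up with CC under the label normal and down under the label steatotic, and the groups of Il18bp to Il18 overlap.

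The livers were compared within each treatment. With Veh, 4 of the 10 genes were higher in the libraries labelled steatotic (Pycard, Casp4, Gsdmd, Il18), 3 were lower (Il1a, Il1b, Il1rn) and 3 were not called by edgeR, beside 16.4% and 14.3% of all tested genes (30.7% in either direction). With CC, 5 were higher (Pycard, Casp4, Gsdmd, Il1b, Il18), 1 was lower (Il1rn) and 4 were not called, beside 15.9% and 12.9% of all tested genes (28.8% in either direction). The members' median log2 fold change was 0.10 with Veh and 0.40 with CC, against -0.0095 and 0.0026 over all tested genes. These comparisons share their libraries with the CC responses above and are the same values read across the labels.

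Among the parts of the complex, Pycard was 1.85-fold higher with Veh (log2 0.89, SE 0.0894, edgeR adjusted p = 0.000241) and 1.86-fold higher with CC (log2 0.89, SE 0.0900, edgeR adjusted p = 0.000284). Gsdmd had 74.2 and 73.9 CPM in normal Veh, 63.2 and 68.2 CPM in normal CC, 100 and 107 CPM in steatotic Veh, and 92.6 and 101 CPM in steatotic CC (chr15:75862327-75867408). All 4 steatotic libraries lay above all 4 normal ones, with 1.44-fold at Veh (log2 0.53, SE 0.0627, edgeR adjusted p = 0.000549) and 1.50-fold at CC (log2 0.59, SE 0.0628, edgeR adjusted p = 0.000389).

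Casp4 had 129 and 125 CPM in normal Veh, 114 and 116 CPM in normal CC, 138 and 141 CPM in steatotic Veh, and 126 and 136 CPM in steatotic CC. It was 1.13-fold higher with Veh (log2 0.18, SE 0.0490, edgeR adjusted p = 0.0290) and 1.16-fold higher with CC (log2 0.22, SE 0.0491, edgeR adjusted p = 0.0133). Both calls of Casp4 were weak. The first was lost without any 1 of the 4 Veh libraries (edgeR adjusted p = 0.0688 without normal Veh 1, 0.134 without normal Veh 2, 0.0900 without steatotic Veh 1 and 0.127 without steatotic Veh 2, range 0.0167 to 0.134 over the 8 fits that left out a library), and the second without normal CC 1, normal CC 2 or steatotic CC 2 (0.0731, 0.0524 and 0.0636, range 0.00893 to 0.0731).

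Nlrp3 and Casp1 were called in neither treatment by edgeR. The interval of the log2 fold change of Nlrp3 was -0.41 to 0.12 with Veh and -0.19 to 0.34 with CC. For Casp1 it was -0.12 to 0.15 with Veh and -0.08 to 0.19 with CC, so that levels of this caspase between the labels were within 0.19 on the log2 scale at the interval ends.

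Il18 was 1.71-fold higher with Veh (log2 0.77, SE 0.0839, edgeR adjusted p = 0.000350) and 1.56-fold higher with CC (log2 0.64, SE 0.0844, edgeR adjusted p = 0.00109) in the libraries labelled steatotic. Il1a was 2.07-fold lower with Veh (log2 -1.05, SE 0.0656, edgeR adjusted p = 2.13e-05). Il1b was 1.18-fold lower with Veh (log2 -0.23, SE 0.0627, edgeR adjusted p = 0.0264) and 1.65-fold higher with CC (log2 0.72, SE 0.0630, edgeR adjusted p = 0.000136). Il1rn was 1.39-fold lower with Veh (log2 -0.48, SE 0.0514, edgeR adjusted p = 0.000331) and 1.26-fold lower with CC (log2 -0.33, SE 0.0513, edgeR adjusted p = 0.00249).

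The Il1b call with Veh was lost without normal Veh 1, normal Veh 2 or steatotic Veh 2 (edgeR adjusted p = 0.0853, 0.0761 and 0.144, range 0.0149 to 0.144 over the 8 fits that left out a library). The other Veh calls of the cytokines and the call of Il1b with CC held in each of those fits. Il18bp had a log2 fold change of 0.79 with Veh (95% interval -0.45 to 2.04, edgeR adjusted p = 0.287) and of 1.04 with CC (-0.22 to 2.29, edgeR adjusted p = 0.191).

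**Figure D4:**
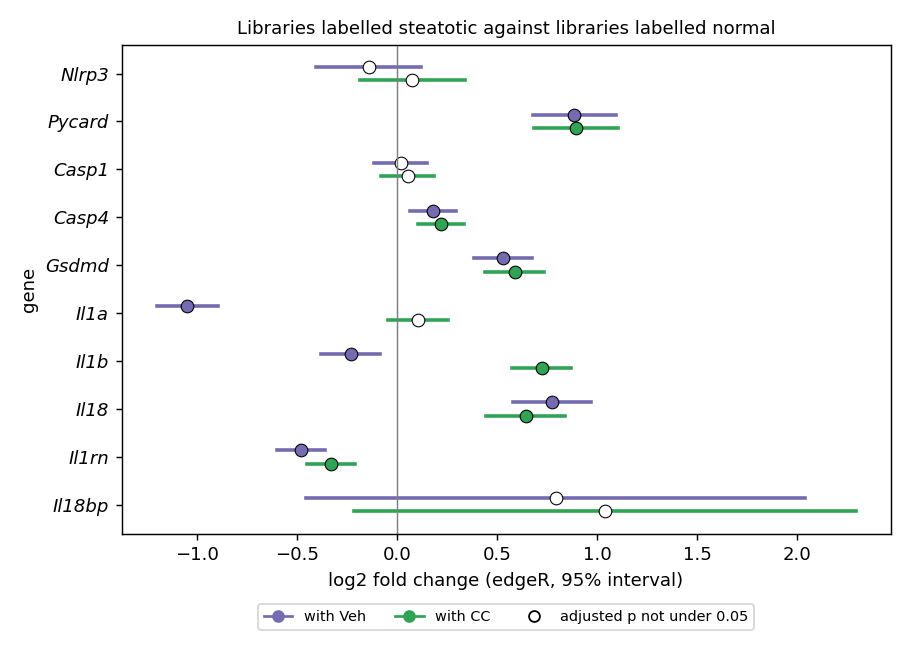
Log2 fold change of each gene in the libraries labelled steatotic against those labelled normal (points) with its 95% interval (lines), with Veh (purple) and with CC (green), and open points where the edgeR adjusted p is not under 0.05. Pycard, Gsdmd and Il18 lie to the right of 0 in both treatments, Il1rn to the left in both, and Il1b at -0.23 with Veh and 0.72 with CC.

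Markers of other cells differed between the labels beside these genes. All 5 recruited monocyte markers were higher in the libraries labelled steatotic in both treatments, with a summed level of 9.22 to 9.35 CPM in normal Veh, 6.34 to 6.95 CPM in normal CC, 114 to 120 CPM in steatotic Veh and 78.9 to 90.4 CPM in steatotic CC, and all 7 T or NK cell markers were higher, at 0.580 to 0.935 CPM in normal against 12.5 to 16.8 CPM in steatotic libraries, and all 7 passed the filter only through the steatotic libraries. Of the 8 hepatocyte markers 7 were tested and 5 were lower with Veh, at 57.5 to 59.6 CPM in normal against 2.31 to 2.71 CPM in steatotic Veh. Of the 6 Kupffer cell markers 3 were higher and 2 lower with Veh, as were 4 and 1 of 6 tested endothelial markers and 2 and 2 of 6 dendritic cell markers. The B cell list summed to between 1.20 and 3.02 CPM and the mast cell list to between 2.69 and 7.61 CPM over all libraries. The part of such cells in the differences of the 10 genes was not tested.

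The other genes of the pathway were read from 5 lists. Of 11 other inflammasome sensors, 9 were tested and 7 were higher in the libraries labelled steatotic in each treatment, beside 16.4% of all tested genes with Veh and 15.9% with CC. With CC, 2 rose and 1 fell in normal libraries (6.27% and 5.54% of all tested genes) and 3 rose and 1 fell in steatotic libraries (12.0% and 10.9%). Nlrp6 and Nlrp12 were at 0 in all 8 libraries. Mefv, the gene of the sensor pyrin, had 136 and 137 CPM in normal Veh, 135 and 146 CPM in normal CC, 199 and 198 CPM in steatotic Veh, and 265 and 292 CPM in steatotic CC. It rose with CC in steatotic libraries (log2 0.51, SE 0.0583, edgeR adjusted p = 0.000640) and had 0.08 (95% interval -0.06 to 0.21) in normal ones.

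Pstpip1, whose product binds pyrin, had the lowest p-value among the regulators. It had 31.2 and 30.8 CPM in normal Veh, 42.3 and 44.6 CPM in normal CC, 198 and 191 CPM in steatotic Veh, and 234 and 227 CPM in steatotic CC, or 6.47-fold higher with Veh (log2 2.69, SE 0.0487, edgeR adjusted p = 1.01e-07). Nlrp1b, one of the other sensors, was 4.04-fold higher with Veh (edgeR adjusted p = 6.38e-05) and fell with CC by 1.68 in normal and by 1.20 in steatotic libraries on the log2 scale. Naip1, a receptor that passes bacterial secretion needle protein to NLRC4, rose 1.80-fold and 2.22-fold with CC.

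Of 13 regulators, all tested, 6 were higher and 1 lower with Veh in the libraries labelled steatotic (16.4% and 14.3% of all tested genes). With CC 3 rose and 2 fell in normal libraries (6.27% and 5.54%), and 3 rose and 1 fell in steatotic libraries (12.0% and 10.9%). The falls in normal libraries were those of Panx1 (log2 -0.42) and Casp8 (log2 -0.30). In 8 fits with other settings, the call of Panx1 held in 4 and that of Casp8 in 8. The fall in steatotic libraries was that of Casp8, with log2 -0.24, and -0.31 to -0.18 without 1 library. Gbp2 and Gbp5, guanylate binding proteins that act on engulfed microbes, were 1.56-fold and 1.65-fold higher with Veh in steatotic libraries. Panx1, a channel that lets ATP out of the cell, was 2.54-fold lower (log2 -1.34, SE 0.110, edgeR adjusted p = 8.23e-05). Nek7, a kinase that binds NLRP3, is named after its values were seen. It had 140 and 136 CPM in normal Veh, 37.8 and 36.5 CPM in normal CC, 159 and 159 CPM in steatotic Veh, and 135 and 42.5 CPM in steatotic CC, and was not called (log2 -1.86 in normal libraries, 95% interval -3.34 to -0.37, edgeR adjusted p = 0.128) while its steatotic CC pair lay far apart.

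Among the 6 other ligands of the family, 3 were tested and 3 were at 0 in all libraries. Il36g, the gene of IL-36γ, which lies on chromosome 2 near Il1rn (chr2:24186476-24193568), had 0.170 and 0.634 CPM in normal Veh, 3.62 and 3.73 CPM in normal CC, 0.615 and 1.29 CPM in steatotic Veh, and 8.69 and 7.54 CPM in steatotic CC. It rose with CC under both labels, by log2 3.23 (SE 0.596, edgeR adjusted p = 0.0201) and 3.10 (SE 0.558, edgeR adjusted p = 0.0102). The log2 fold change was 2.58 without normal Veh 1 and 4.46 without normal Veh 2 in normal libraries, and 2.67 without steatotic Veh 1 and 3.73 without steatotic Veh 2 in steatotic libraries. The normal call was lost without normal CC 1 or normal CC 2 (edgeR adjusted p = 0.0836 and 0.0817, range 0.00564 to 0.0836 over the 8 fits that left out a library). Il33, an alarmin, had at most 0.805 CPM in the other groups and 6.42 and 3.25 CPM in steatotic CC (log2 2.84 against Veh, edgeR adjusted p = 0.00814), a call that was lost without steatotic CC 1 or steatotic Veh 2 (edgeR adjusted p = 0.0564 and 0.0687, range 0.00341 to 0.0687).

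Of 8 receptors, 6 were tested, of which 3 were higher and 1 lower with Veh in the libraries labelled steatotic (16.4% and 14.3% of all tested genes). Of the 3 higher ones, Il18r1 (0.0850 and 0.121 CPM in normal Veh, 0.849 and 0.815 CPM in steatotic Veh) passed the filter only through the steatotic libraries, and its call and that of Il18rap held in 4 and 3 of the 8 fits that left out a library. With CC 1 of the 6 rose in steatotic libraries, beside 12.0% of all tested genes. Il1r1, the receptor that signals for IL-1α and IL-1β, had 2.59 and 3.07 CPM in normal Veh and 12.1 and 13.02 CPM in steatotic Veh, 4.58-fold higher (log2 2.19, SE 0.125, edgeR adjusted p = 1.42e-05). Il1rl2, the receptor of IL-36, had 17.8 and 16.9 CPM in normal Veh, 18.3 and 15.7 CPM in normal CC, 7.96 and 8.18 CPM in steatotic Veh, and 21.4 and 20.6 CPM in steatotic CC. The steatotic Veh libraries lay below all others, and the CC response was 1.40 (SE 0.0979, edgeR adjusted p = 5.33e-05) in steatotic and 0.01 (95% interval -0.21 to 0.24) in normal libraries on the log2 scale, the latter with its sign turned by some alternatives.

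Of 15 genes of signalling below the receptor, all tested, 5 were higher and 2 lower with Veh in the libraries labelled steatotic (16.4% and 14.3% of all tested genes). Of the lower ones, Irak2 was close to the threshold (log2 -0.21, edgeR adjusted p = 0.0462) and held its call in 4 of 8 fits with other settings. Its log2 fold change was -0.24 to -0.18 without 1 library. With CC 3 rose and 1 fell in normal libraries (6.27% and 5.54%), and 5 rose and 1 fell in steatotic libraries (12.0% and 10.9%). Irak4, the first kinase recruited to MyD88, fell by 0.54 and by 0.67 on the log2 scale (edgeR adjusted p = 0.000605 and 7.84e-05). Tollip, an inhibitor of the receptor complex, rose by 0.47 and 0.63 (edgeR adjusted p = 0.000846 and 8.27e-05). Irak2 rose by 0.47 and 0.50 (edgeR adjusted p = 0.00314 and 0.00114).

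**Figure D5:**
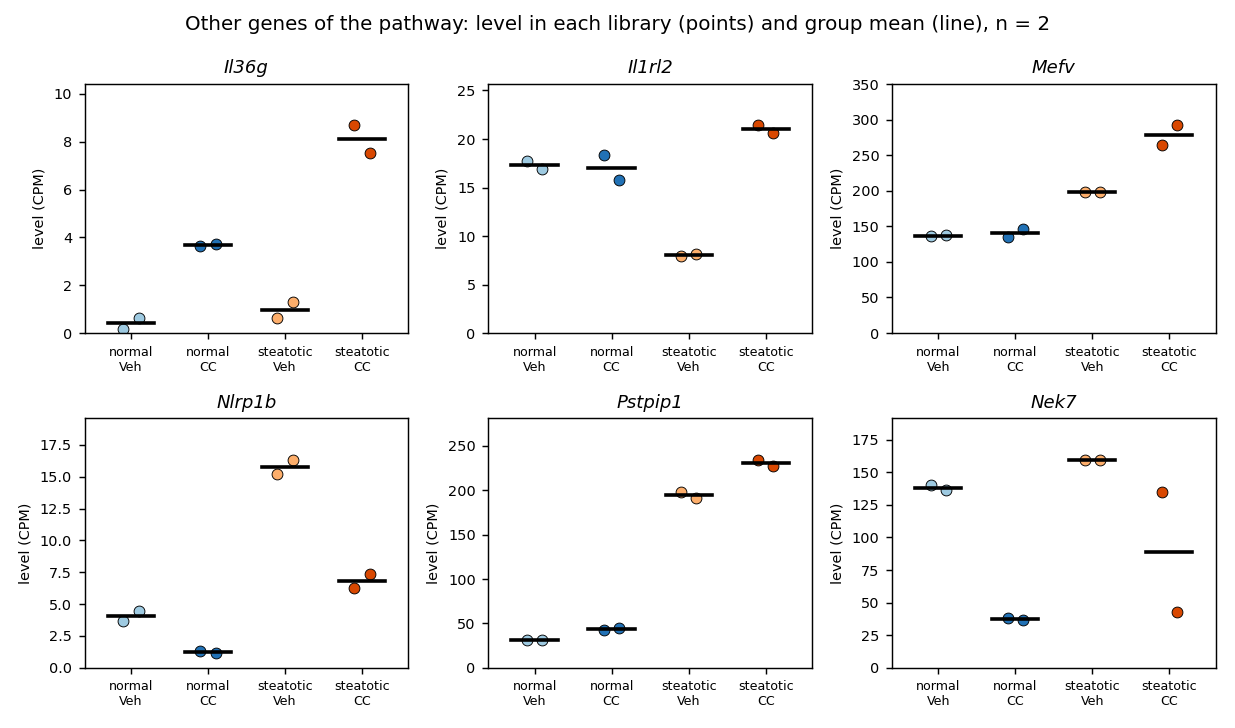
Level of 6 other genes of the pathway (CPM, axis from 0) in the 8 libraries, with points for single libraries and a line for the mean of the 2 libraries of a group. Il36g is higher with CC under both labels, Il1rl2 has its lowest 2 libraries in steatotic Veh, Pstpip1 and Nlrp1b separate the labels, and the steatotic CC libraries of Nek7 lie at 135 and 42.5 CPM.

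Over the 8 libraries and 9023 genes with a mean log2 CPM above 3, the genes whose log2 CPM followed that of Il1b most closely were Cox14 (Pearson r = 0.970), Phf11c (0.958), Cox7a2 (0.952), Cers6 (0.951) and Cyba (0.937). For Nlrp3 they were Spty2d1 (0.992), Pvr (0.992), Id2 (0.991), Lox (0.990) and Aars (0.989), and for Il1rn they included Serpinb9 (0.995), Ppp2ca (0.995), Tiparp (0.994) and Mapk6 (0.993). These are likenesses over the same 8 libraries, which share their depth and scaling, and are given without a test.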

How the data were processed

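Poly(A) RNA of hepatic macrophages was sequenced in 8 libraries. Per the authors' processing notes and methods, fastp was used for trimming, HISAT2 for alignment to mm10 and StringTie for quantification (versions not given in the sources used here). What the authors deposited is a single table of expected counts (StringTie estimates) for 55401 genes, unnormalized, with a column for each library. Its values are whole numbers, so no rounding was needed. An excess of small multiples of 4 was read as about 4 counts per fragment, by which 3 fragments correspond to 0.161 to 0.205 CPM. Floors and intervals of counts cover counting error only.

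Groups and replicate numbers were taken from the labels, which give no batch. CPM were counts scaled to the library total. Genes were kept where any 1 library reached 0.5 CPM, the minimum the study states, and were tested with edgeR 4.0.16 in R 4.3.3 (TMM scaling, factors 0.981 to 1.03; robust glmQLFit and glmQLFTest in 1 model with 4 group means), with Benjamini-Hochberg adjustment over all 15202 tested genes in each of 5 contrasts and a threshold of 0.05. SE and 95% intervals were derived from the quasi-likelihood F statistic. Identifiers were matched without version to GENCODE M21 (15181 of 15202 found), from which exon lengths and coordinates were taken, and IL-36 genes were matched by identifier because the table lists them under older symbols. Promoter windows are from RefSeq. Correlations used log2 CPM with a prior count of 4.

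Named genes are all 10 members, up to 5 called genes of lowest p-value from each pathway list, the 5 most similar genes for Il1b, Nlrp3 and Il1rn, Mc4r and the marker lists. One of the similar genes is not reported here. The members and lists were chosen with earlier results of these data known. Alternatives were DESeq2 1.42.0 for edgeR, DESeq2 size factors for TMM, no scaling beyond library size, TMM factors in the CPM, a filter on 2 libraries or no filter, counts divided by 4, a replicate block, fits of 4 libraries only, and leaving out each library. The tests were tried on simulated data with known changes. Figures were drawn with matplotlib 3.10.9.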

Additional observations from a re-analysis of the deposited data

Results flagged for a closer look

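The response to CC differed between the libraries labelled steatotic and normal, by edgeR's test of the difference itself, for 4 genes among the members and the other pathway genes named here. By list, these were 2 of 10 members, 1 of 9 other sensors and 1 of 6 receptors, beside 3.22% of all tested genes. None of 13 regulators, 15 signalling genes and 3 other ligands was called. The other pathway genes were named by lowest p-value over all 5 contrasts, this one included. The difference in log2 fold change was 1.15 for Il1a (edgeR adjusted p = 0.00169), 0.95 for Il1b (edgeR adjusted p = 0.00273), 1.38 for Il1rl2 (edgeR adjusted p = 0.00334) and 0.43 for Mefv (edgeR adjusted p = 0.0367). Il1a rose under both labels, with the larger rise under the label steatotic. Il1rl2 and Mefv were called higher with CC only under the label steatotic, and had log2 0.01 and 0.08 in normal libraries. Il1b fell under the label normal (log2 -0.47) and rose under the label steatotic (log2 0.49). The first 3 held in every fit that left out a library, with differences of 1.08 to 1.22, 0.87 to 1.04 and 1.28 to 1.50. The call of Mefv held in 2 of those 8 fits (edgeR adjusted p from 0.0251 to 0.118). Groups of 2 libraries are too small for a search for outlying libraries.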

How the results depend on the processing

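Among the log2 fold changes of the 10 genes, 388 values under other settings kept their direction and their side of the threshold, as did 368 values from fits without 1 library, in which a group left with 1 library is assumed to vary like the others. With library size only, Casp4 with Veh was no longer called (log2 fold change 0.13, edgeR adjusted p = 0.0829, range 0.0266 to 0.0829 over the other settings) and Casp1 with Veh turned to -0.0284. Without 1 library, 15 values of the 10 genes lost their call, as given beside the results, and 17 turned sign, none of them called in the full data. The ranges of those that turned were -0.0128 to 0.0441 for Casp1 with Veh, -0.0233 to 0.13 for Casp1 with CC and -0.0915 to 0.23 for Nlrp3 with CC between the labels, -0.71 to 0.16 in normal and -0.55 to 0.36 in steatotic libraries for Il18bp with CC against Veh, and, for the difference of responses, -0.0406 to 0.11 for Casp1, -0.0184 to 0.10 for Casp4, -0.00787 to 0.12 for Gsdmd, -0.0754 to 0.0863 for Pycard and -0.28 to 0.69 for Il18bp. For the other pathway genes named, 523 values under other settings kept direction and side of the threshold, 18 lost their call, 4 gained one and 2 turned sign. The lost calls were those of Irak2 and Il33 with Veh between the labels, Il1rl2, Il1rap and Irak4 with CC between the labels, and Panx1 and Il36g with CC in normal libraries. Il1rl2 with CC in normal libraries turned to -0.0243 with library size only and to -0.000899 without a filter, and ranged from -0.10 to 0.12 without 1 library. Il33 with CC in normal libraries ranged from -0.29 to 1.62 and the difference of Il36g from -1.36 to 0.53. Il36g with CC in normal libraries lost its call without a filter (edgeR adjusted p = 0.0568) and with the 4 libraries alone (0.0517, range 1.79e-09 to 0.0568 over the other settings). The cause of these changes was not tested.

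The number of genes called different in response was 737 with DESeq2 against 490 with edgeR, and 298 to 427 without 1 library, falling to 307 without normal CC 1, 314 without normal CC 2 and 298 without steatotic Veh 2. For CC in normal libraries it was 1795, and 1020 to 1761 without 1 library, falling to 1083 without normal Veh 1, 1020 without normal CC 1 and 1095 without normal CC 2. Of the 10 genes, the number called without 1 library was 5 to 7 with Veh between the labels, 4 to 6 with CC in normal, 6 in steatotic libraries, 2 for the difference and 5 to 6 with CC between the labels.

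The replicate numbers are not stated to mark shared animals, so they were not taken as pairs. Deviations of the libraries numbered 1 from their group means had correlations of -0.0048 to 0.0629 between groups, over all tested genes. Such values cannot decide whether libraries shared a source, because an effect on few genes would not show. With the replicate block, 4371, 1545, 3237, 400 and 4067 genes were called (steatotic against normal with Veh, CC in normal, CC in steatotic, the difference, and steatotic against normal with CC), and 7, 6, 6, 2 and 6 of the 10 genes, which are the same numbers as without it. Depth limits statements on genes near 0.5 CPM, such as Il36g and Il33 with Veh.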
